A study of Homo sapiens with 22 samples.

Results

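The genes described here are 8 that move water, gases, urea and ions through the erythroid cell or serve that traffic: the aquaporins AQP1, AQP3 and AQP9, the carbonic anhydrases CA1 and CA2, the urea transporter SLC14A1 and the cation channels PIEZO1 and KCNN4. They were chosen by symbol out of the 59087 gene names listed in each of 2 count tables from HUDEP-2 RNA-Seq. AQP1 was included because its counts in H2A.X KO cells at D0 were known to be among the lowest relative to WT, so every contrast that holds those D0 libraries is given for these genes as a description, without a test. Of the 8 genes, 7 passed the filter on low counts in both tables. AQP9 had no read in any of the 22 libraries.

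Red cells carry carbon dioxide from tissue to lung and must keep their volume while doing so. Carbonic anhydrase in the cytoplasm turns carbon dioxide and water into bicarbonate and a proton, the anion exchanger SLC4A1 trades bicarbonate for chloride, and AQP1 and the Rh-associated glycoprotein lie in the same membrane. PIEZO1 opens when the membrane is stretched and lets calcium in, calcium opens the Gardos channel KCNN4, and potassium and water then leave the cell. SLC14A1 carries urea and the Kidd blood group antigens, and it lets red cells cross the urea-rich renal medulla without shrinking or swelling.

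HUDEP-2 is a line of immortalized human erythroid progenitors kept in growth by a doxycycline-dependent transgene. RNA was taken at D0, from cells in an expansion medium with SCF, EPO, dexamethasone and doxycycline, and at D6, after a change to a maturation medium with plasma, holo-transferrin, insulin, SCF, EPO and doxycycline. One experiment compared 2 WT with 3 H2A.X KO replicates and the other 3 WT with 3 BAZ1B KO replicates. With the same numbers on both days, this gave 10 and 12 libraries. H2A.X is a histone H2A variant phosphorylated around DNA breaks, and BAZ1B is a chromatin remodeler subunit that can phosphorylate it. The knockouts were made with lentiviral Cas9 and a pair of guides and then subcloned by limiting dilution at about 1 cell per well, so a property of a few clones cannot be told apart from the knockout. The labels do not say how the WT replicates arose. The authors describe the WT cells of the H2A.X RNA-Seq as subclones, and state that WT subclones were handled like the KO lines. P-values measure the spread between these samples. All groups were exposed to doxycycline.

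Libraries held 11910141 to 21013004 counts in the H2A.X experiment and 33199408 to 41273244 in that on BAZ1B, where the biological coefficient of variation was also smaller, 0.0865 against 0.239. Levels are given as CPM, counts scaled to the effective library size, and since the tables were normalized separately, levels of the 2 experiments are only set side by side. Counts of H2AFX, as the tables name the gene for H2A.X, were 2.83-fold lower in H2A.X KO at D0 (adjusted p = 0.0304) and 2.88-fold lower at D6 (adjusted p = 0.0233), and those of BAZ1B 1.32-fold (adjusted p = 0.00415) and 1.3-fold lower (adjusted p = 0.0025) in its own knockout. All 15 late erythroid markers exceeded 1 CPM in every library, whereas the 8 neutrophil markers summed to at most 1.38 CPM in any library. Markers of mast cells and eosinophils summed to 209 to 419 CPM in H2A.X KO and 104 to 140 CPM in WT at D0, and to 3.08 to 13.5 CPM in KO and 145 to 232 CPM in WT at D6. Of the 5 of these 8 genes tested, 3 were higher and 0 lower in KO at D0, and 0 higher and 2 lower at D6. In the BAZ1B experiment the same markers summed to 467 to 508 CPM in WT and 453 to 620 CPM in KO at D0. At D6 they summed to 30 to 40.8 CPM in WT and 12.2 to 38.4 CPM in KO. WT cells of the experiments thus differed in these markers on both days. Of 4 tested early progenitor markers, 3 were higher in H2A.X KO at D0. The part of these markers in the results was not tested. Between D0 and D6 in WT of the H2A.X experiment, with 2 libraries a day, 265 of 13236 genes changed at an adjusted p below 0.05 in edgeR and 2796 at an unadjusted p below 0.05. The column names of 5 of the 6 H2A.X KO libraries, all but KO replicate 3 at D6, carry the word Redo and no WT library does. Fold changes of H2A.X KO against WT rose with transcript length over all genes (Spearman's rho 0.5 at D0 and 0.55 at D6, over 12017 genes, which are not independent replicates).

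Most of these genes rose with maturation. In WT of the BAZ1B experiment, 6 of the 7 measured genes rose from D0 to D6 and PIEZO1 fell. In BAZ1B KO, 5 rose, SLC14A1 fell, and PIEZO1 did not pass the threshold. AQP1 rose 108-fold in these WT cells and 192-fold in BAZ1B KO, KCNN4 10.4-fold and 9.26-fold, CA2 3.92-fold and 2.1-fold, CA1 3.82-fold and 3.34-fold, and AQP3 3.36-fold and 3.33-fold. A call here means a Benjamini-Hochberg adjusted p below 0.05 over all genes in edgeR's quasi-likelihood test. By that rule 68.9% of all tested genes changed in WT and 67.7% in KO, with 33.5% and 33.2% higher at D6. Groups did not overlap for 7 of 7 genes in WT, beside 78.0% of all genes, and for 6 of 7 in KO, beside 68.0%.

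**Figure D1:**
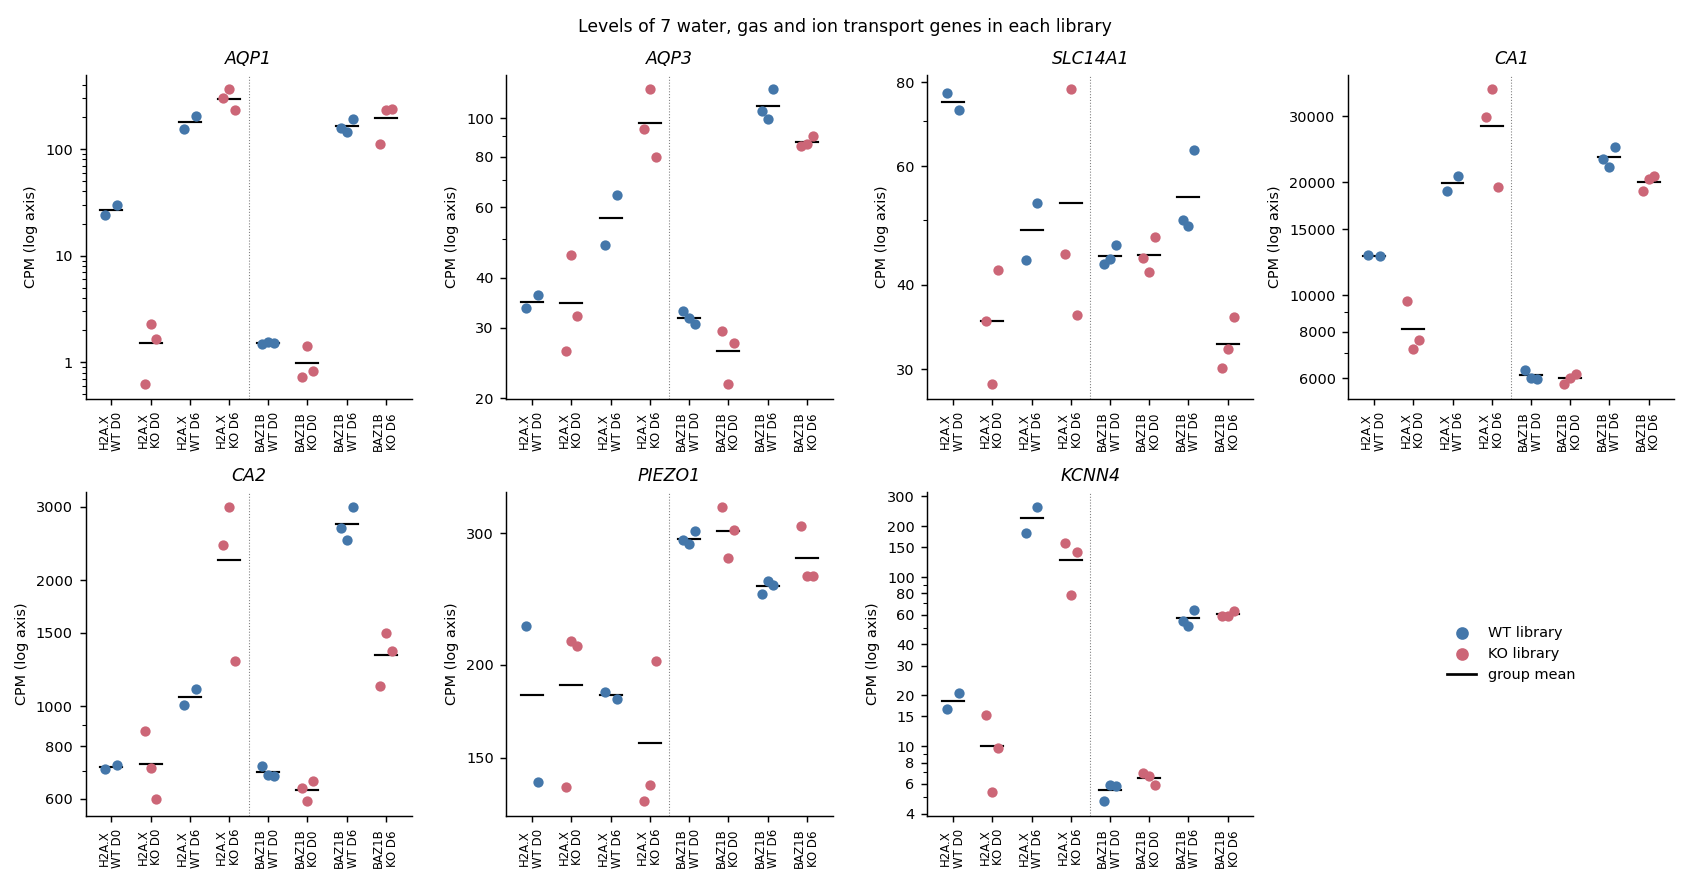
CPM on a log axis in each of the 22 libraries for the 7 genes with reads, with WT libraries in blue, KO libraries in red and the group mean as a bar. AQP1 spans from 0.626 CPM in H2A.X KO at D0 to 363 CPM in H2A.X KO at D6, while PIEZO1 stays between 131 and 326 CPM.

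AQP1, the main water channel of the red cell, lies at chr7:30911853-30925517 on the plus strand (GRCh38), and another annotated protein-coding gene shares exons with it on the same strand. At D0 of the H2A.X experiment, AQP1 stood at 24.3 and 29.6 CPM in WT, from 422 and 434 reads. In KO it stood at 0.626, 2.3 and 1.64 CPM, from 13, 47 and 35 reads, so all KO libraries lay under both WT libraries. The KO mean was 17.6-fold below that of WT (log2 fold change -4.14, SE 0.376), and 15 of the 13236 tested genes had a lower fold change. This is the value that led to the choice of the gene. At D6 the order was the opposite, with 155 and 205 CPM in WT and 298, 363 and 231 CPM in KO. The groups again did not overlap, yet the difference did not pass the test (log2 fold change 0.72, SE 0.327, adjusted p = 0.097). It stayed uncalled under 8 of 13 alternatives and passed under 5. These were no filter on low counts (0.78, adjusted p = 0.00156), leaving out KO replicate 3 (0.91, adjusted p = 0.0397) and the length and GC correction (1.06, adjusted p = 0.037). The others were a replicate block without (0.81, adjusted p = 0.0302) and with that correction (1.17, adjusted p = 0.0106). That block joins KO and WT libraries by number, which share no origin in the labels. Over all alternatives the log2 fold change ranged from 0.55 to 1.17.

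From D0 to D6, AQP1 therefore rose 6.68-fold in WT of that experiment (log2 fold change 2.74, SE 0.378) and 195-fold in H2A.X KO (log2 fold change 7.6, SE 0.4), neither tested. Among BAZ1B libraries at D0, AQP1 stood at 1.48, 1.56 and 1.52 CPM in WT and at 0.734, 1.43 and 0.826 CPM in KO. The mean of H2A.X KO at D0, 1.52 ± 0.842 CPM (SD, n = 3), thus stood beside a mean of 1.52 ± 0.0377 CPM (SD, n = 3) in WT of the BAZ1B experiment, while WT of the H2A.X experiment had 26.9 ± 3.73 CPM (SD, n = 2). At D6, AQP1 reached 158, 144 and 191 CPM in WT and 111, 233 and 238 CPM in BAZ1B KO, which overlapped (log2 fold change 0.24, SE 0.215, adjusted p = 0.534). Without KO replicate 1, the lowest of them, AQP1 was higher in KO (0.52, adjusted p = 0.00642). It was also called without the filter on low counts (0.25, adjusted p = 8.57e-05), at a nearly unchanged fold change. That setting lowered the adjusted p of other comparisons in the same way. For AQP3 in BAZ1B KO at D0 the fold change was -0.28 with and without the filter, at adjusted p = 0.146 and 0.000158. Calls gained in that setting therefore do not reflect a larger difference. The KO effect changed by 0.84 between the days (SE 0.621, adjusted p = 0.556), which passed only without that filter (0.85, adjusted p = 8.44e-05) or with a block by subclone (0.83, adjusted p = 0.0412) among the alternatives run. The summed level of the 15 late erythroid markers at D0 ranged from 21693 to 30553 CPM in WT and from 9581 to 12172 CPM in KO of the H2A.X experiment, and from 4066 to 4782 CPM in WT and 5115 to 5592 CPM in KO of the BAZ1B experiment. Of these markers 9 were lower in H2A.X KO at D0 and 0 higher, and 3 were lower and 1 higher in BAZ1B KO. The part of the late erythroid markers in the result was not tested. In bulk RNA, fewer cells of a kind and less RNA per cell cannot be told apart.

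The order of AQP1 levels was H2A.X KO D0, WT D0, WT D6 and KO D6 in the H2A.X experiment, with no overlap between neighbours. In the BAZ1B experiment it was KO D0, WT D0, WT D6 and KO D6, and only the last pair overlapped. At D0, from 28 to 68 reads per library, BAZ1B KO and WT did not differ past the threshold (log2 fold change -0.6, SE 0.584, adjusted p = 0.696).

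AQP1 and KCNN4 had the largest rises, so the 250 bases before the first base of their transcripts are shown, read 5′ to 3′ along the gene's strand from RefSeq on GRCh38.p14, at chr7:30911603-30911852 on the plus strand and chr19:43780974-43781223 on the minus strand. Capitals mark CCGCCC, a GC box, on either strand, so that GGGCGG is the same motif on the other strand.
AQP1: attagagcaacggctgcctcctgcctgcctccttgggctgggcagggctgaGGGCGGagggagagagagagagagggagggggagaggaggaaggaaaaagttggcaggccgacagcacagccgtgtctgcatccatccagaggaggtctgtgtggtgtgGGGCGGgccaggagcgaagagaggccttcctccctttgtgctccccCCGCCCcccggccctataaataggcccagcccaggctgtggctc
KCNN4: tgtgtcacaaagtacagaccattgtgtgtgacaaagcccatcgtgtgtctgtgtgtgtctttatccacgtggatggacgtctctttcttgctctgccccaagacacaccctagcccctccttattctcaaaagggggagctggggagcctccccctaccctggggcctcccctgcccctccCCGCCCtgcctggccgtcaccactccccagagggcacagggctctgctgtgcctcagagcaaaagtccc
The AQP1 window held 3 such motifs, ending 193, 84 and 38 bases before the start, and the KCNN4 window held 1, ending 63 bases before it. Neither held the GATA motifs AGATAA or TGATAA or the KLF motif CCACACCC on either strand. Of 35097 promoter windows of that length, 42.6% held CCGCCC, 9.17% AGATAA, 6.66% TGATAA and 2.97% CCACACCC. A motif is a description of the letters and shows no binding, and its absence says only that these letters are not in this window.

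AQP3, which passes glycerol as well as water, lies at chr9:33441156-33447596 on the minus strand. At D0 it stood at 33.5 and 36.2 CPM in WT and 26.3, 45.5 and 32 CPM in H2A.X KO (log2 fold change -0.01, SE 0.249, not tested). At D6 it stood at 48.3 and 64.3 CPM in WT and at 93.8, 118 and 79.9 CPM in H2A.X KO. Every KO library lay above both WT libraries, and AQP3 was 1.73-fold higher in KO (log2 fold change 0.79, SE 0.253, adjusted p = 0.0294). Leaving out a single library at D6 ended this call for both WT libraries and for KO replicates 1 and 2, with adjusted p = 0.171, 0.0799, 0.0508 and 0.0837.

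BAZ1B KO went the other way in AQP3 at D6, when mean WT levels were 107 CPM in this experiment and 56.3 CPM in that on H2A.X. WT libraries held 104, 99.5 and 118 CPM and KO libraries 85.2, 86.2 and 90.3 CPM, without overlap and 1.23-fold lower (log2 fold change -0.3, SE 0.0885, adjusted p = 0.0455). This value is near the threshold and was lost without any 1 of the 6 libraries of that day, at adjusted p from 0.0501 to 0.189. At D0 the groups did not overlap either, at 30.6 to 33.1 CPM in WT and 21.7 to 29.4 CPM in KO, but the difference was not called (log2 fold change -0.28, SE 0.0949, adjusted p = 0.146), except without KO replicate 1 (-0.37, adjusted p = 0.0236) or without the filter on low counts (-0.28, adjusted p = 0.000158). The rise from D0 to D6 was 1.75 (SE 0.0925) in WT and 1.73 (SE 0.0941) in KO on the log2 scale, and their difference was -0.02 (SE 0.13, adjusted p = 0.972).

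AQP9 is an aquaglyceroporin of liver and white blood cells and lies at chr15:58138169-58185911 on the plus strand. It had 0 reads in all 22 libraries. A count of 3, the limit that a count of 0 allows, corresponds to 0.0688 to 0.306 CPM in these libraries, which covers counting error only. This gene was therefore not detectable at this depth on either day or in any genotype.

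SLC14A1, at chr18:45687025-45752520 on the plus strand, had the least regular pattern. With H2A.X it stood at 77 and 72.8 CPM in WT at D0 and at 35.3, 28.5 and 42.1 CPM in KO, 2.12-fold lower (log2 fold change -1.08, SE 0.291, not tested). At D6 WT libraries held 43.5 and 53 CPM and KO libraries 44.5, 78.1 and 36.1 CPM. On that day the groups overlapped (log2 fold change 0.13, SE 0.297, adjusted p = 0.731), and the sign of this value depended on KO replicate 2, without which it was -0.26.

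SLC14A1 in the BAZ1B experiment stood at D0 at 42.9, 43.7 and 45.8 CPM in WT and 43.8, 41.8 and 47.2 CPM in KO (log2 fold change 0, SE 0.0933, adjusted p = 0.991), with overlap. WT libraries of D6 held 49.9, 48.9 and 63.4 CPM, and KO libraries 30.1, 32.1 and 35.8 CPM. The highest KO library lay under the lowest WT library, and SLC14A1 was 1.66-fold lower in KO (log2 fold change -0.73, SE 0.0948, adjusted p = 0.000328). It rose 1.23-fold from D0 to D6 in WT (adjusted p = 0.0129; 0.0588 without WT replicate 3 of D6) and fell 1.36-fold in KO (adjusted p = 0.00116). The difference between these changes was itself called (-0.73, SE 0.133, adjusted p = 0.0151), but not without WT replicate 1 (adjusted p = 0.052) or 2 (adjusted p = 0.0508) of D0.

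CA1 and CA2 are the cytoplasmic carbonic anhydrases of the red cell, CA1 the more abundant and CA2 the faster enzyme. Both lie on chromosome 8 of GRCh38, CA1 from 85327608 to 85379014 on the minus strand and CA2 from 85463968 to 85481493 on the plus strand. CA1 alone took 0.622% to 3.12% of all counts in a library. At D0 of the H2A.X experiment, CA1 held 12811 and 12727 CPM in WT and 9631, 7187 and 7595 CPM in KO, which did not overlap (log2 fold change -0.65, SE 0.247, not tested). At D6 it held 18960 and 20873 CPM in WT and 29915, 35453 and 19425 CPM in KO. KO replicate 3 lay between the WT libraries, so the groups overlapped (log2 fold change 0.51, SE 0.253, adjusted p = 0.13), and without it CA1 was higher in KO (0.75, adjusted p = 0.0223).

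CA2 overlapped between H2A.X KO and WT at D0, at 706 and 721 CPM in WT and 872, 711 and 599 CPM in KO (log2 fold change 0.03, SE 0.3, not tested). With a correction for length and GC content this value was 0.42. At D6 it stood at 1004 and 1097 CPM in WT and 2426, 3006 and 1285 CPM in KO. All KO libraries lay above WT, and CA2 was 2.13-fold higher in KO (log2 fold change 1.09, SE 0.31, adjusted p = 0.0181). The call was lost without WT replicate 1 (adjusted p = 0.0871) or WT replicate 2 (adjusted p = 0.0976) of D6, either of which leaves 1 WT library that is assumed to vary like the other groups.

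In BAZ1B KO, CA2 had the largest difference of these genes at D6. It rose to 2667, 2506 and 2999 CPM in WT and to 1119, 1499 and 1352 CPM in KO, from 719, 684 and 680 CPM and 637, 591 and 663 CPM at D0. At D6 the WT and KO ranges lay far apart, and CA2 was 2.06-fold lower in KO (log2 fold change -1.04, SE 0.0923, adjusted p = 1.97e-05). At D0 the difference was not called (log2 fold change -0.14, SE 0.0916, adjusted p = 0.516). The change from D0 to D6 was thus smaller in KO by 0.9 on the log2 scale (SE 0.13, adjusted p = 0.00393).

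CA1 in the same libraries fell far less with the knockout. At D6 it stood at 23129, 22000 and 24900 CPM in WT and 18948, 20470 and 20760 CPM in BAZ1B KO, 1.16-fold lower without overlap (log2 fold change -0.22, SE 0.0491, adjusted p = 0.0108). At D0 the groups overlapped, at 5979 to 6327 CPM in WT and 5796 to 6184 CPM in KO (log2 fold change -0.03, SE 0.0491, adjusted p = 0.86). The difference between the days did not pass the threshold for CA1 (-0.19, SE 0.0694, adjusted p = 0.185).

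The unequal change of both enzymes shows in the ratio of CA1 to CA2 counts, which was computed after their values were seen and is given without a test. In WT of the BAZ1B experiment the ratio was 8.8, 8.81 and 8.79 at D0 and 8.67, 8.78 and 8.3 at D6. In BAZ1B KO it was 9.1, 10.2 and 9.33 at D0 and 16.9, 13.7 and 15.4 at D6. The rise in KO at D6 thus lay outside every other library of that experiment. For the H2A.X experiment the ratio was 18.1 and 17.6 in WT at D0 and 18.9 and 19 at D6. It was 11, 10.1 and 12.7 in H2A.X KO at D0 and 12.3, 11.8 and 15.1 at D6, below WT on both days. The WT cells of the 2 experiments therefore had different ratios on both days. A ratio of counts within a library does not depend on the scaling to library size, and the cause was not tested.

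**Figure D2:**
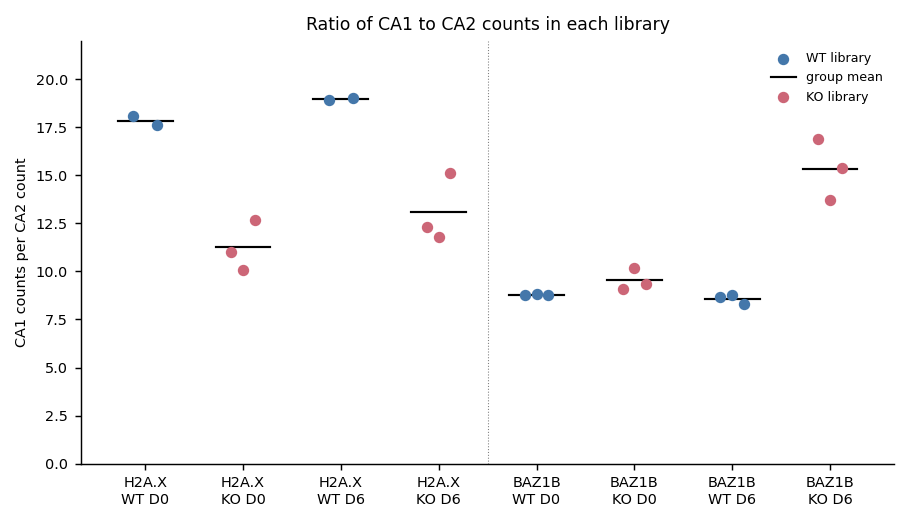
CA1 counts divided by CA2 counts in each library (blue WT, red KO, bar for the group mean) by experiment, genotype and day. BAZ1B KO at D6 sits at 13.7 to 16.9 above its WT at 8.3 to 8.78, and H2A.X KO sits below its WT on both days.

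PIEZO1, at chr16:88715338-88785220 on the minus strand, encodes the stretch-gated channel in which gain-of-function variants cause hereditary xerocytosis. It overlaps exons of CTU2 and of noncoding genes on the opposite strand. It changed least with the day of the 7 genes in the BAZ1B experiment. Libraries of the H2A.X experiment held 225 and 139 CPM in WT and 137, 215 and 212 CPM in KO at D0, and 184 and 180 CPM in WT and 131, 138 and 202 CPM in KO at D6. The groups overlapped on both days. The log2 fold change was 0.04 at D0 (SE 0.272, not tested) and -0.22 at D6 (SE 0.271, adjusted p = 0.537). With the length and GC correction the D0 value turned to -0.34, and it ranged from -0.26 without WT replicate 2 to 0.43 without WT replicate 1.

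PIEZO1 in the BAZ1B experiment held 294, 290 and 302 CPM in WT and 326, 278 and 303 CPM in KO at D0. At D6 it held 249, 259 and 256 CPM in WT and 307, 263 and 263 CPM in KO. The WT libraries fell 1.16-fold from D0 to D6 without overlap (log2 fold change -0.21, SE 0.0644, adjusted p = 0.00999), whereas KO overlapped between the days (-0.12, SE 0.0644, adjusted p = 0.115). The KO value passed with a block by subclone (adjusted p = 0.0157) and without KO replicate 2 of D0 (-0.17, adjusted p = 0.029) or KO replicate 1 of D6 (-0.19, adjusted p = 0.0101). The fall in WT was gone after a correction for transcript length and GC content (0.03, adjusted p = 0.582). KO against WT passed no threshold at D0 (0.03, SE 0.0642, adjusted p = 0.867) or D6 (0.13, SE 0.0645, adjusted p = 0.241).

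KCNN4, the calcium-activated potassium channel, lies at chr19:43766533-43780976 on the minus strand. It stood in the H2A.X experiment at 16.6 and 20.6 CPM in WT and 15.2, 5.33 and 9.74 CPM in KO at D0. At D6 it stood at 183 and 261 CPM in WT and 159, 78.3 and 141 CPM in KO. KO libraries lay under WT libraries on both days (log2 fold change -0.88, SE 0.403, not tested, and -0.81, SE 0.384, adjusted p = 0.111), and a correction for length and GC content took the D6 value to -0.01. Over the alternatives, the D0 value ranged from -1.3 to -0.3.

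The rise of KCNN4 with maturation was 11.9-fold in WT and 12.5-fold in KO of the H2A.X experiment, neither tested. KCNN4 in the BAZ1B experiment stood at 4.72, 5.92 and 5.79 CPM in WT and 6.9, 6.69 and 5.92 CPM in KO at D0, and at 55.2, 51.6 and 64.1 CPM in WT and 59.2, 58.9 and 62.9 CPM in KO at D6. KO and WT differed by 0.25 (SE 0.109, adjusted p = 0.298) at D0 and 0.08 (SE 0.0856, adjusted p = 0.592) at D6 on the log2 scale, and the rises differed by -0.16 (SE 0.139, adjusted p = 0.612). WT of the H2A.X experiment had higher CPM of KCNN4 than WT of the BAZ1B experiment on both days.

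**Figure D3:**
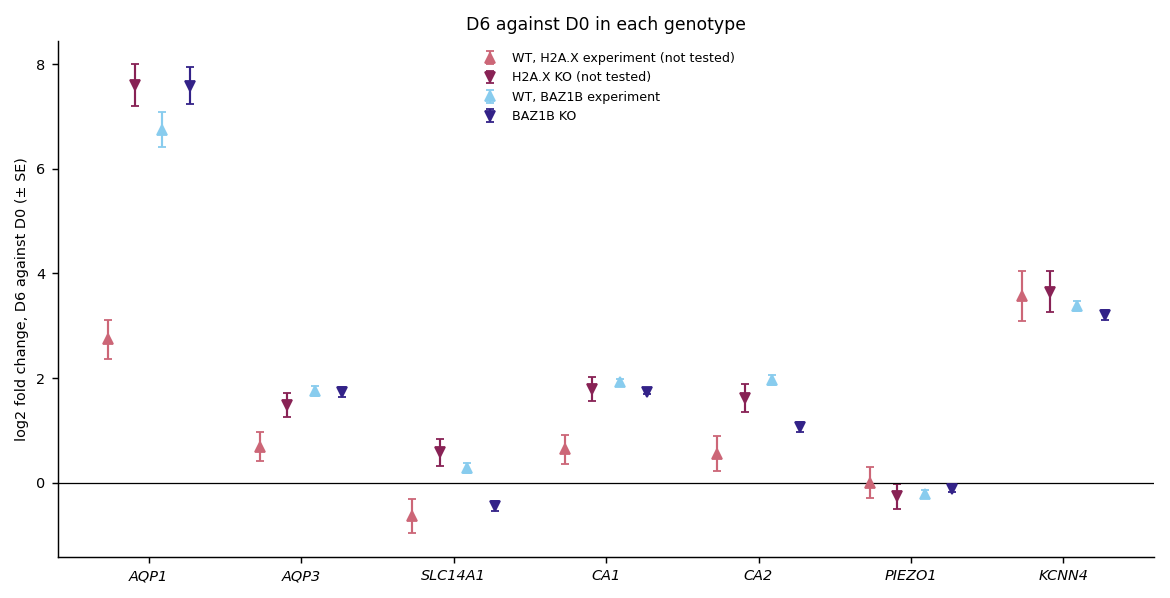
log2 fold change of D6 against D0 with its SE for 7 genes in WT and KO of both experiments, where the H2A.X experiment is a description. AQP1 rose by 6.75 in WT and 7.59 in KO of the BAZ1B experiment and by 2.74 in WT of the H2A.X experiment, and PIEZO1 lies near 0 in all 4.

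By comparison, H2A.X KO against WT at D6 called 2 of the 7 measured genes, AQP3 and CA2, both higher in KO, beside 43.1% of all tested genes called in either direction and 22.2% called higher. These shares of the genes lie below or near the background. Groups did not overlap for 4 of 7 genes, beside 63.3% of all genes. The only KO library of that day without the word Redo was the lowest of 3 in 5 genes (AQP1, AQP3, CA1, CA2 and SLC14A1) and the highest in PIEZO1, and without it the count was 4. The part of that mark in the result was not tested. Of the 15 late erythroid markers, 6 were higher and 1 lower in H2A.X KO at D6, with a median log2 fold change of 0.70. Their sums overlapped, at 35347 to 62179 CPM in WT and 36047 to 67496 CPM in KO, and their part was not tested. At D0, where no test was made, 5 of 7 genes had lower and 2 higher fold changes, the median was -0.65 beside 0.013 over all genes, and groups did not overlap for 4 of 7, beside 70.3% of all genes, of which 35.1% were called.

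BAZ1B KO against WT at D0 called 0 of 7 genes in edgeR, beside 3.88% of all genes. DESeq2 also called 0, and 2 genes had an unadjusted p below 0.05. Groups did not overlap for 4 of 7 genes, beside 22.5% of all genes. At D6, 4 of 7 were called, AQP3, CA1, CA2 and SLC14A1, all lower in KO, beside 12.8% of all genes in either direction and 5.97% lower. Groups did not overlap for 5 of 7, beside 30.8%. The effect of the knockout differed between the days for 2 of 7 genes, CA2 and SLC14A1, both towards lower levels in KO at D6, beside 2.47% of all genes and 0.893% in that direction. The summed late erythroid markers ranged from 32607 to 38865 CPM in WT and from 25749 to 30096 CPM in KO at D6, with 6 of 15 lower and 1 higher, and their part in the result was not tested. At D0 the sum went the other way, from 4066 to 4782 CPM in WT and from 5115 to 5592 CPM in KO. By gene, however, 3 of the 15 were lower and 1 higher at D0, with a median log2 fold change of -0.08.

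**Figure D4:**
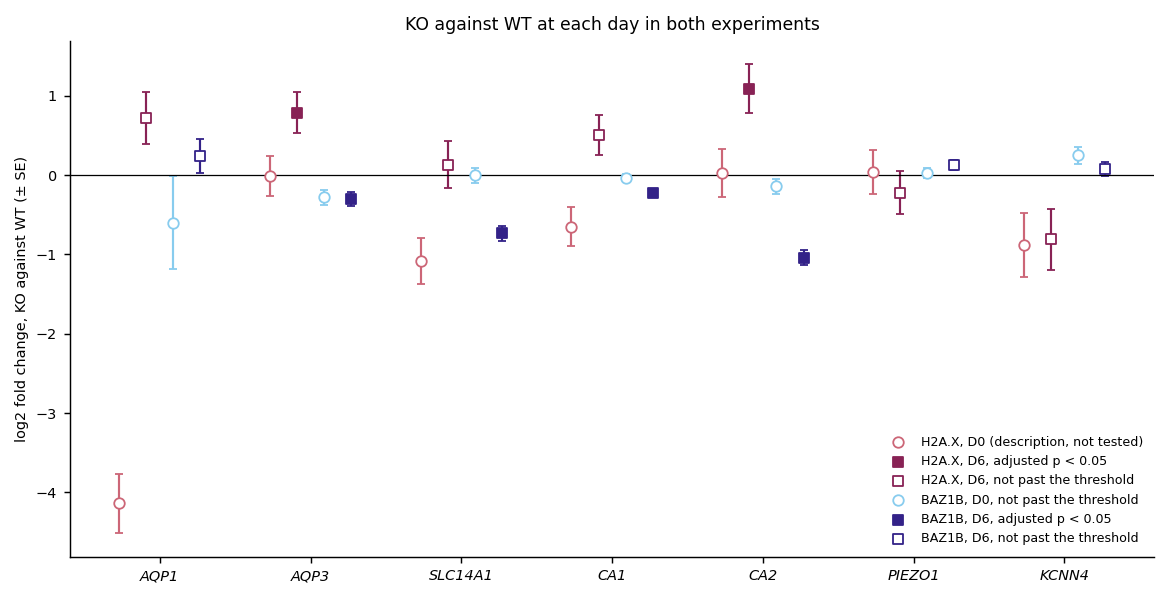
log2 fold change of KO against WT with its SE for 7 genes in both experiments and on both days, where filled symbols passed an adjusted p below 0.05. AQP1 at -4.14 in H2A.X KO at D0 stands far below the rest, and CA2 lies at 1.09 in H2A.X KO and -1.04 in BAZ1B KO at D6.

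Within the H2A.X experiment, day comparisons of these genes were not tested. Groups of D6 and D0 did not overlap for 6 of 7 genes in WT, beside 51.3% of all genes, of which 2.0% were called, and for 5 of 7 in KO, beside 48.8% of all genes, of which 30.9% were called. Between the days the KO effect shifted upwards for 6 of the 7, by 4.86 for AQP1, 1.22 for SLC14A1, 1.15 for CA1, 1.06 for CA2 0.8 for AQP3 and 0.07 for KCNN4, and it shifted by -0.26 for PIEZO1. Over all genes, 1.34% were called in that comparison.

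Under stricter cutoffs, with adjusted p under 0.001 and a log2 change over 1.5 in size, no tested knockout comparison called any of these genes. That holds beside 0.151% of all genes for H2A.X KO at D6, 0.360% for BAZ1B KO at D0, 0.749% at D6 and 0.0288% for the difference between the days. From D0 to D6 in the BAZ1B experiment, the same cutoffs called 5 genes in WT (AQP1, AQP3, CA1, CA2 and KCNN4), beside 11.7% of all genes, and 4 in KO (without CA2), beside 11.5%. For the contrasts with D0 libraries of the H2A.X experiment, the shares of all genes were 0.166% for KO against WT at D0, 0.00% for WT and 3.22% for KO between the days, and 0.00% for the difference of these.

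Compared per kilobase of exon, which allows levels of different genes to be set beside each other, CA1 led in every group. In WT of the BAZ1B experiment at D6, mean levels per kilobase were 5738 ± 359 CPM for CA1, 1357 ± 125 for CA2, 50.4 ± 7.46 for AQP1, 36.8 ± 3.3 for AQP3, 22.6 ± 0.488 for PIEZO1, 18.2 ± 2.06 for KCNN4 and 7.53 ± 1.12 for SLC14A1 (SD, n = 3). At D0 of the same cells, AQP1 stood lowest of the 7 at 0.467 ± 0.0116 CPM per kilobase and PIEZO1, at 26.2 ± 0.502, followed CA1 and CA2. AQP1 thus moved from the lowest to the third place in these cells. In WT of the H2A.X experiment, KCNN4 was lowest at D0, at 5.96 CPM per kilobase against 8.26 for AQP1, and AQP1 came in the fourth place at D6, at 55.2 behind KCNN4 at 71.

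Across the libraries of 1 experiment, Pearson's r of log2 CPM among AQP1, AQP3, CA1, CA2 and KCNN4 was lowest for CA2 and KCNN4, at 0.649 over 10 libraries of the H2A.X experiment and 0.875 over 12 of the BAZ1B experiment. Between AQP1 and CA1 it was highest, at 0.922 and 0.991. PIEZO1 went against AQP1, at -0.222 and -0.75. The libraries share the step from D0 to D6, and these values are descriptions. Over 10066 genes averaging 50 or more normalized counts in both experiments, those most like AQP1 by the lower of both r values were RAB3IL1 (0.988 and 0.989), SIPA1 (0.985 and 0.995) and PSMF1 (0.984 and 0.989). For KCNN4 they were GCAT, SENP8 and NMU, for CA1 SLC30A1, E2F2 and LBH, for CA2 DDX52, FAM117A and NUDT4, and for AQP3 SMOX, FAM117A and SQOR. The genes nearest to SLC14A1 and PIEZO1 had lower r. They were MIR22HG (0.743 and 0.819) and EID1 for SLC14A1, and SLC17A9 (0.783 and 0.868), RNF207 and IGHMBP2 for PIEZO1.

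A list of 64 other transport genes, chosen by known function, gave the surroundings, with 38 tested in the experiment on H2A.X and 39 in that on BAZ1B. Between D0 and D6 in WT of the BAZ1B experiment, 19 rose and 17 fell. Of the genes for anions and gases, SLC4A1, the chloride-bicarbonate exchanger, rose 113-fold (adjusted p = 1.85e-10), and the Rh genes RHD and RHCE rose 18.9-fold (adjusted p = 6.54e-08) and 9.61-fold (adjusted p = 4.34e-08). SLC4A7, a sodium-bicarbonate cotransporter, fell 2.63-fold (adjusted p = 2.68e-08). Of the genes for cations and cell volume, the sodium pump subunit ATP1B2 rose 37.5-fold (adjusted p = 8.29e-12) and the potassium-chloride cotransporter SLC12A4 4.37-fold (adjusted p = 2.35e-09). AQP10, the other aquaporin with a large change, fell 8.26-fold (adjusted p = 3.09e-05), from 2.76 ± 0.249 to 0.323 ± 0.307 CPM (SD, n = 3). The glucose transporter SLC2A1 rose 7.1-fold (adjusted p = 9.38e-11). In BAZ1B KO, 17 of the list rose and 15 fell.

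In H2A.X KO at D6, 19 of the other transport genes were higher and 2 lower, with a median log2 fold change of 0.83 beside -0.006 over all genes. Called genes made up 55.3% of the 38, beside 43.1% of all genes. Of the 21 tested genes for cations and cell volume, 16 were higher and 0 lower, with a median of 1.07, beside 22.2% of all genes called higher. With the correction for length and GC content 8 were higher, with a median of 0.56. Without that correction, the 16 included the kinase WNK1, 5.58-fold higher (adjusted p = 0.00454), the calcium pump ATP2B1, 3.55-fold higher (adjusted p = 0.00354), and ATP1B2, 3.27-fold higher (adjusted p = 0.0402). Over the whole list, that correction left 12 calls in place of 21. CA3, a carbonic anhydrase of muscle, stood at 80 ± 60.3 CPM in KO (SD, n = 3) against 2.34 ± 0.729 CPM in WT (SD, n = 2) and was 34.9-fold higher (adjusted p = 0.0042). CA13 was 6.2-fold (adjusted p = 0.0474) and CA11 1.89-fold lower (adjusted p = 0.0316). CA13 was close to the limit of counting, at 0.13 and 0.917 CPM in WT and 0.0718 ± 0.0315 CPM in KO (SD, n = 3). In these WT libraries 3 counts correspond to 0.195 and 0.306 CPM, so the CA13 value rests on few reads. RHAG, which together with the Rh proteins can pass ammonia and carbon dioxide, was 1.8-fold higher (adjusted p = 0.034).

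At D0, H2A.X KO had 13 of the list higher and 6 lower, 50% of the 38 tested, beside 35.1% of all genes. SLC4A1 was 6.74-fold lower (adjusted p = 0.0302), at 86.8 ± 83.2 CPM (SD, n = 3) against 585 ± 87.7 in WT (SD, n = 2), and RHCE was 6.98-fold lower (adjusted p = 0.0225). WNK1 (2.98-fold, adjusted p = 0.0231) and the scramblase ANO6 (2.84-fold, adjusted p = 0.00695) were higher. AQP10 was 5.48-fold higher (adjusted p = 0.0112). CA3 was at 27.8 ± 14.4 CPM in KO (SD, n = 3) against 0.217 ± 0.0183 CPM in WT (SD, n = 2), with a log2 fold change of 6.95 (adjusted p = 0.00555). In these WT libraries 3 counts correspond to 0.173 and 0.204 CPM, so the size of this fold change rests on few WT reads. WT of the BAZ1B experiment held 37.7 ± 1.53 CPM of CA3 at D0 (SD, n = 3). Here too the correction for length and GC content left 12 calls of 19. The KO effect differed between the days for 0 of 38 in edgeR, with 13 at an unadjusted p below 0.05 and 8 calls in DESeq2.

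In BAZ1B KO, 10.3% of the 39 tested genes were called at D0, beside 3.88% of all genes, and 30.8% at D6, beside 12.8%. At D0, CA3 (2.09-fold, adjusted p = 0.00241), SLC4A1 (7.38-fold, adjusted p = 2.53e-05) and ATP1B2 (3.03-fold, adjusted p = 0.000155) were lower and RHD 2.81-fold higher (adjusted p = 0.0242). At D6, 8 were lower and 4 higher. CA3 fell furthest, to 32.9 ± 5.45 CPM against 109 ± 18.2 in WT (SD, n = 3; 3.31-fold lower, adjusted p = 2.4e-05). RHCE was 2.19-fold (adjusted p = 0.00307), SLC4A1 1.71-fold (adjusted p = 0.0185) and RHAG 1.23-fold lower (adjusted p = 0.00265), and ANO6 was 1.3-fold higher (adjusted p = 0.0142). CA3 and CA2, both lower in BAZ1B KO at D6, were both higher in H2A.X KO at D6. Their WT levels differed between the experiments on that day. Mean CA3 in WT and KO was 2.34 and 80 CPM with H2A.X and 109 and 32.9 CPM with BAZ1B. Mean CA2 in WT and KO was 1050 and 2239 CPM with H2A.X and 2724 and 1323 CPM with BAZ1B. The part of the WT levels in the opposite signs was not tested.

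**Figure D5:**
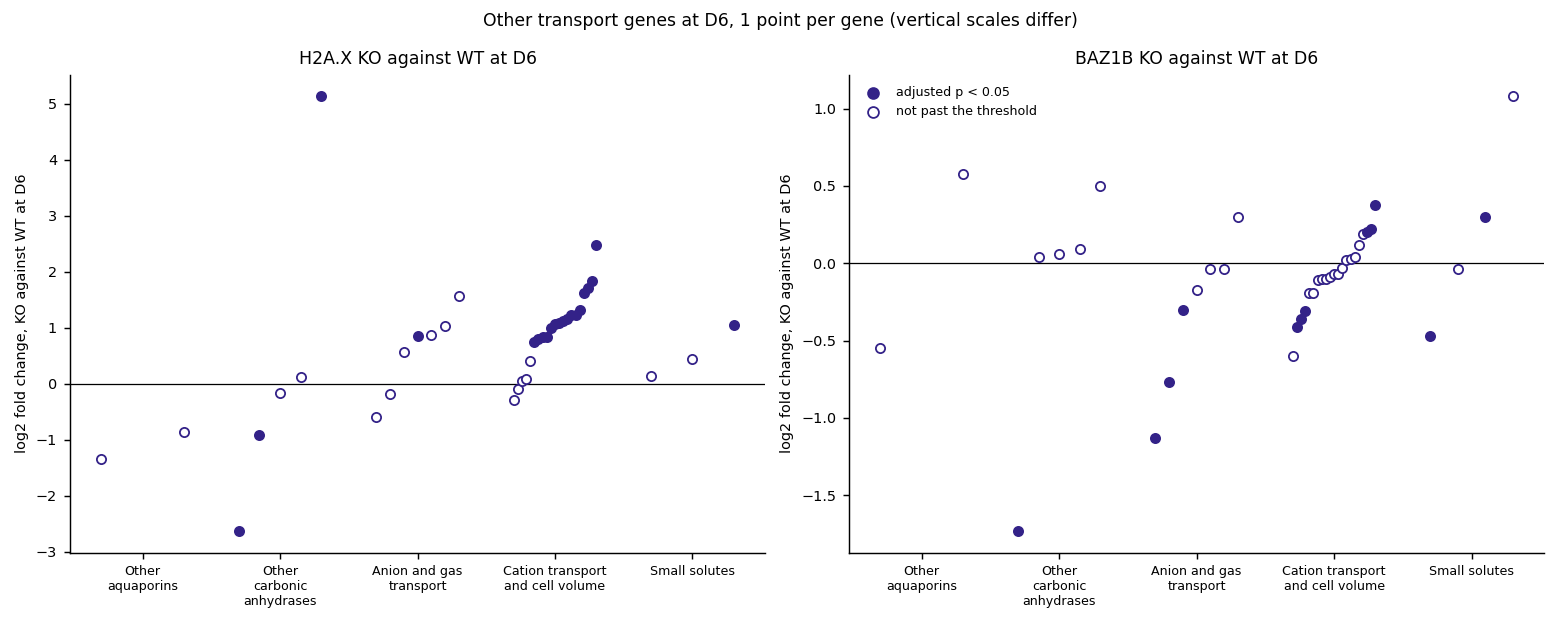
log2 fold change of KO against WT at D6 for the other transport genes that were tested, 1 point per gene within 5 functional groups, filled at an adjusted p below 0.05, with a separate vertical scale for each experiment. In H2A.X KO 16 of 21 genes for cations and cell volume are filled above 0, and in BAZ1B KO 3 are filled above and 3 below.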

How the data were processed

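RNA-Seq counts of HUDEP-2 cells were analysed from 10 libraries of the H2A.X experiment and 12 of the BAZ1B experiment, grouped by genotype and day from the labels. The authors trimmed single-end reads with fastp, mapped them with STAR to hg38 and deposited raw counts per gene without normalization. The submitters' processing notes list STAR 2.7.0f, Subread 1.6.4 with featureCounts, and DESeq2 1.22.1. The methods name a stranded kit and the labels an unstranded one, which was not tested, so antisense overlaps remain uncertain. Libraries share no molecular identifiers, and intervals from counts cover counting error only.

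In R 4.3.3, genes were filtered with filterByExpr of edgeR 4.0.16 (minimum count 10, minimum total 15), normalized by TMM and fitted by the quasi-likelihood method with 1 coefficient per genotype and day, both days of 1 experiment together. This left 13236 and 13879 genes. Tests are two-sided, adjusted by Benjamini-Hochberg over all genes of a table, and the SE was taken from the F statistic. CPM are counts scaled to the effective library size. Gene positions and exon lengths came from GENCODE v44 on GRCh38, where 36434 names matched directly and 759 by an older name. Promoter windows came from RefSeq.

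The genes, the lists of other transport genes and markers, and the tests were chosen with earlier results of these data known. All 8 genes and both targets are named, and of each group of transport genes at most the 3 largest called changes in each direction, with CPM where they help. Some genes that this rule would name are not reported here. Alternatives were DESeq2 1.42.0, other normalizations, no filter, the compared groups alone, a term for the replicate number, a correction for length and GC content, stricter cutoffs and leaving out each library. A term for the subclone, taken as genotype and replicate number, was chosen after seeing the data. Deviations of same-numbered KO libraries at D0 and D6 correlated by 0.271 to 0.542 with H2A.X and 0.125 to 0.547 with BAZ1B. Those of same-numbered KO and WT libraries, with no shared origin in the labels, reached 0.242 with H2A.X and 0.231 with BAZ1B. Libraries of different numbers were not compared, so these values do not settle whether the numbers pair KO libraries across the days. The main fit treats the days as unpaired. In simulated data for KO against WT at D6, a log2 change of 1 was recovered in 22 of 67 genes with the H2A.X libraries and 61 of 67 with those of BAZ1B. The simulation left 12708 of 12908 and 13374 of 13574 genes unchanged, whereas 43.1% and 12.8% of genes were called in the data. An adjusted p depends on that share, so the recovered counts do not measure the power of the reported calls.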

Additional observations from a re-analysis of the deposited data

Results flagged for a closer look

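Changes with genotype that differed between the days were looked at again in 3 cases. With BAZ1B, the KO effect shifted by -0.90 on the log2 scale from D0 to D6 for CA2 (SE 0.13, adjusted p = 0.00393 in edgeR), with mean levels of 630 and 694 CPM at D0 and 1323 and 2724 CPM at D6 in KO and WT. For SLC14A1 it was -0.73 (SE 0.133, adjusted p = 0.0151), with 44.3 and 44.1 CPM at D0 and 32.7 and 54.1 CPM at D6. With H2A.X, every AQP1 library of KO lay under WT at D0 and above WT at D6, a difference of 4.86 on the log2 scale that was not tested, because the D0 libraries entered the choice of the gene.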

How the results depend on the processing

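Of 1233 values recomputed for 86 results, 1127 kept their direction and side of the threshold or stayed within their spread, 15 fell under the threshold, 19 passed it, 56 moved and 16 reversed. With H2A.X KO against WT at D6, the 2 calls among the genes became 4 without the filter on low counts, with the replicate block, and with the block and the length and GC correction, 0 under the stricter cutoffs, and 0 to 4 when a library was left out (0 without WT replicate 1 or 2, 1 without KO replicate 1 or 2, 4 without KO replicate 3). With BAZ1B KO at D0, 0 calls became 2 without the filter and 0 to 1 without a library (1 without KO replicate 1), and at D6, 4 became 0 under the stricter cutoffs, 5 without the filter and 3 to 4 without a library. The difference between the days had 2 calls, 3 without the filter or with the block by subclone, 0 under the stricter cutoffs and 1 to 2 without a library (1 without WT replicate 1 or 2 of D0). SLC14A1 in H2A.X KO at D6 reversed to -0.12 with the length and GC correction, -0.10 with that and the replicate block, and without single libraries it ranged from -0.26 (KO replicate 2) to 0.38. At D0 of the BAZ1B experiment, SLC14A1 ranged from -0.04 (KO replicate 3) to 0.04 (-0.02 and -0.00 without WT replicates 1 and 2) and PIEZO1 from -0.03 (KO replicate 1) to 0.09. PIEZO1 from D0 to D6 reversed with the length and GC correction to 0.03 in WT and 0.05 in KO, and with that and the block to 0.04 and 0.05. The AQP3 difference between the days ranged from -0.13 to 0.08 without single libraries and reversed in 5 cases. The cause was not tested.

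Of the other transport genes, calls with H2A.X KO went from 19 to 12 at D0 and from 21 to 12 at D6 with the length and GC correction, and to 0 and 0 under the stricter cutoffs. Between the days in WT of that experiment, 2 became 5 with DESeq2, 1 with upper-quartile normalization, 7 without the filter, 4 with the replicate block, 5 with the block by subclone and 0 under the stricter cutoffs, and in KO 21 became 5 under the latter. For the difference between the days, 0 became 8, 1, 14, 4 and 10 under the first 5 of these settings, 1 with the length and GC correction and 4 with that and the block. With BAZ1B, 4 at D0 became 7 without the filter and 2 under the stricter cutoffs, 12 at D6 became 1, 36 in WT and 32 in KO between the days became 12 and 9, and 4 in the difference between the days became 9 without the filter and 0 under the stricter cutoffs.

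KO and WT libraries of 1 number share no origin in the labels, and their deviations correlated by 0.105 to 0.242 in the H2A.X experiment. By subclone across the days, a block also called AQP1 (0.83, adjusted p = 0.0412) in the BAZ1B difference between the days and PIEZO1 (-0.12, adjusted p = 0.0157) in BAZ1B KO from D0 to D6. At D0 in H2A.X KO, where no test was made, the replicate block with the length and GC correction moved CA2 to 0.68, PIEZO1 to -0.53 and AQP3 to 0.28, and at D6 it called PIEZO1 (-0.60, adjusted p = 0.0397). What depth and the number of libraries each limit was not separated.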
